A study of Mus musculus with 18 samples.

Results

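Potassium channel genes were examined in the ipsilateral dorsal horn of the spinal cord, abbreviated DHSC, after mice had been injected with formalin in the hindpaw. Members were taken by symbol, as genes named Kcn followed by a family letter or letters and a number, which gave 92 of the 55573 genes of the count table. Of these 92, 83 had at least 10 counts in 6 or more of the 18 samples, as did 24997 genes of the whole table, and only these 83 are described with fold changes. The other 9, namely *Kcna7*, *Kcna10*, *Kcne1*, *Kcne2*, *Kcnj1*, *Kcnj15*, *Kcnk18*, *Kcnmb3* and *Kcnv2*, stayed below this minimum and did not exceed 0.884 CPM in any sample, CPM being a gene's count scaled by the library total after adjustment by TMM factors. All samples came from adult C57BL/6J mice that received 2% formalin, with lumbar DHSC taken 2 h later. The groups were 6 males, 6 females in proestrus with a short interphase of the pain response (F1/proestrus) and 6 females in metestrus with a long interphase (F2/metestrus). Females had thus been grouped by behavior and cycle stage together, and every group had received formalin, so no value below measures a response to formalin. The methods describe the samples of a group as biological replicates.

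Potassium channels let potassium leave or enter the cell along its gradient, and they set the resting potential, the shape of the action potential and the firing rate of neurons. Pore-forming subunits are encoded by the voltage-gated (Kcna to Kcnd, Kcnq, Kcnh), calcium- or sodium-activated (Kcnma, Kcnn, Kcnt, Kcnu), inward rectifier (Kcnj) and tandem-pore (Kcnk) families. Modifier subunits (Kcnf, Kcng, Kcns, Kcnv) act only in channels built with other pore subunits, and auxiliary subunits (Kcnab, Kcne, Kcnip, Kcnmb) form no pore. In the dorsal horn these channels are expressed by neurons that relay or inhibit nociceptive input, and in glia the inward rectifiers take up potassium released by active neurons.

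The shared part of the pore-forming members is the selectivity filter, a short loop that coordinates potassium ions. It was searched in frame in the coding sequence of each gene (GENCODE vM21, GRCm38, coding strand only) as the codon pattern ACNNTNGGNTNNGGN, the bases that the codons of the filter's residues share (threonine, then valine, isoleucine or leucine, glycine, tyrosine or phenylalanine, and glycine). With N as any base the pattern also matches codons of other residues at the second and the fourth position, and it is not restricted to filters. The pattern was found in 64 of 92 members (69.6%), against 187 of 21556 protein-coding genes searched (0.868%, members included). It was present in 17 of 17 Kcna to Kcnd genes, 10 of 10 modifiers, 5 of 5 Kcnq genes and 14 of 15 Kcnj genes, and in 0 of 15 auxiliary genes. Among the 14 Kcnk genes, whose subunits carry a pair of pore loops, 11 had 2 matches, 1 had 1 match and 2 had none. A single Kcnh gene of 8, *Kcnh5*, matched, and 5 of the 8 calcium- or sodium-activated channels did, so these letters do not cover every filter. The stretches shown are those of members with high levels or with differences described below, 5′ to 3′, with the 15 matching bases in capitals.
Kcna1: atgaccACTGTGGGATACGGTgacatg
Kcng4: atgacgACCGTGGGCTATGGGgacatg
Kcnt1: ttctcaACTGTGGGCTTCGGTgatgtg
Kcnj8: caagtgACCATTGGGTTTGGAgggaga
Kcnj10: cagaccACCATCGGCTATGGCttccgc
Kcnk9, first match: atcacaACTATCGGATATGGAcatgct
Kcnk9, second match: ttgactACTATAGGGTTCGGCgatttt

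These lie in coding exons, at chr6:126642222-126642248 on the minus strand in exon 2 of 2 for *Kcna1*, and at chr8:119625904-119625930 on the minus strand in exon 3 of 3 for *Kcng4*. The *Kcnt1* stretch is at chr2:25894361-25894387 on the plus strand in exon 11 of 32. The *Kcnj8* stretch is at chr6:142566442-142566468 on the minus strand in exon 3 of 3, and that of *Kcnj10* at chr1:172369296-172369322 on the plus strand in exon 2 of 2. In *Kcnk9* (minus strand) the first match runs over the junction of exons 1 and 2 (chr15:72513031-72546009, intron included) and the second lies in exon 2 (chr15:72512713-72512739).

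Between 73590509 and 125724156 reads were counted on genes per sample, so that 3 counts, the smallest signal read here, were 0.0240 to 0.0407 CPM. By their numbers in the count table the libraries belong to 2 series, 27 to 35 with replicates 1 to 3 of each group and 188 to 196 with replicates 4 to 6. Markers fixed for 10 dorsal horn neuron genes (such as *Grp*, *Tac1* and *Lmx1b*) summed to 279 to 489 CPM in all 18 samples. F1/proestrus 5 stood apart: all 7 markers of sensory ganglion neurons were highest in it, with a sum of 464 CPM against 4.85 to 19.7 CPM in the other 17 samples. Results that rest on this sample are given with and without it. In tissue RNA, fewer cells of a type and less RNA per cell cannot be told apart.

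Levels were compared between genes as mean CPM per kilobase of exon, over 18 samples. The 83 members had a median of 3.89 CPM per kb. Of these, 24 exceeded 10 CPM per kb, 3 lay under 0.1 CPM per kb, and the 10 highest made up 53.2% of the summed level. The Kcna to Kcnd genes held 30.7% of this sum and the auxiliary genes 26.3%, followed by Kcnk (14.2%), Kcnj (10.0%), modifiers (7.72%), calcium- or sodium-activated channels (4.35%), Kcnh (4.04%) and Kcnq (2.65%).

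**Figure D1:**
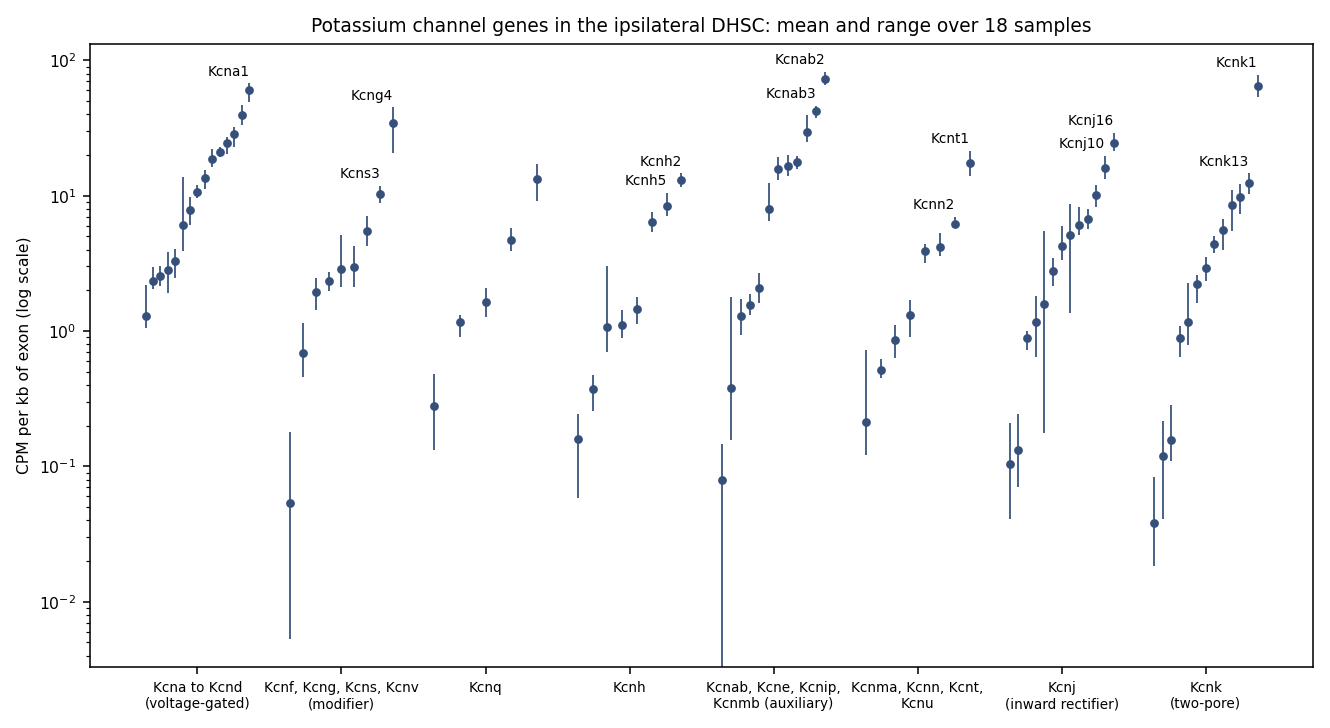
Mean level of each of the 83 members in CPM per kb of exon (log axis), by family, with bars from the lowest to the highest of 18 samples; 13 of the leading genes of 7 families are named. Kcnab2, Kcnk1 and Kcna1 stand highest, and the longest bars are those of low genes such as Kcng3 and Kcne3 (which reaches 0) and of Kcnj13.

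*Kcnab2*, a cytoplasmic beta subunit of Kcna channels, had the highest level, 72.9 ± 4.64 CPM per kb (SD, n = 18). *Kcnk1*, a tandem-pore leak channel of neurons and glia, followed with 64.3 ± 6.22 CPM per kb (SD, n = 18), and *Kcna1*, a low-threshold axonal channel, with 60.5 ± 5.31 CPM per kb (SD, n = 18). The ranges over samples of these 3 genes overlapped from one to the next. A gap followed below *Kcna1*: its lowest sample, at 48.9 CPM per kb, exceeded the highest sample of the next gene, *Kcnab3*, at 46.2 CPM per kb.

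Leading genes of other families were as follows. *Kcng4*, a modifier subunit, reached 34.5 ± 6.95 CPM per kb (SD, n = 18) and *Kcns3*, of the same class, 10.3 ± 0.843 CPM per kb (SD, n = 18). Among inward rectifiers, *Kcnj16* had 24.7 ± 1.99 CPM per kb and *Kcnj10*, its partner in astrocytes, 15.9 ± 1.59 CPM per kb (SD, n = 18 for both). The sodium-activated channel *Kcnt1* had 17.3 ± 2.05 CPM per kb and the small-conductance calcium-activated channel *Kcnn2* 6.15 ± 0.296 CPM per kb (SD, n = 18 for both). *Kcnh2* and *Kcnh5*, of the ether-a-go-go family, had 13.0 ± 0.821 and 8.41 ± 1.03 CPM per kb (SD, n = 18). *Kcnk13*, a leak channel known from microglia, had 12.3 ± 1.21 CPM per kb (SD, n = 18).

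The pooled within-group SD of log2 CPM (0.1 CPM added) had a median of 0.17 over the members against 0.20 over all 24862 genes tested between the sexes, and it was under 0.2 in 52 of 83 members, where it was in 49.6% of all genes. Above 0.4 it was found in 13 of 83 members, where it was in 14.4% of all genes, led by *Kcnj13* with 1.37. *Kcnj13*, an inward rectifier of choroid plexus and other epithelia, ranged from 0.223 CPM in male 5 to 6.94 CPM in F2/metestrus 3, with high and low samples in each group. It was chosen after its values were seen.

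Males were compared with all 12 females to ask whether channel expression after formalin differed between the sexes. No member passed an FDR of 5%: 0 of 83 were called by edgeR, where 0.197% of all 24862 genes were, and DESeq2 and limma voom also called 0. At an unadjusted p under 0.05 there were 8 members, a share near the 9.72% of all genes. Of these 8, 4 had higher values in males (5.84% of all genes) and 4 lower values (3.87% of all genes). No member had males and females without overlap, as 0.125% of all genes did. The log2 fold change had a median of -0.04 over the members and of -0.00133 over all genes, and its 95% interval lay within 0.5 of 0 on the log2 scale for 66 members (69.7% of all genes) and within 1 for 76 (90.3% of all genes). These intervals give the size of difference that the design leaves possible for each gene.

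**Figure D2:**
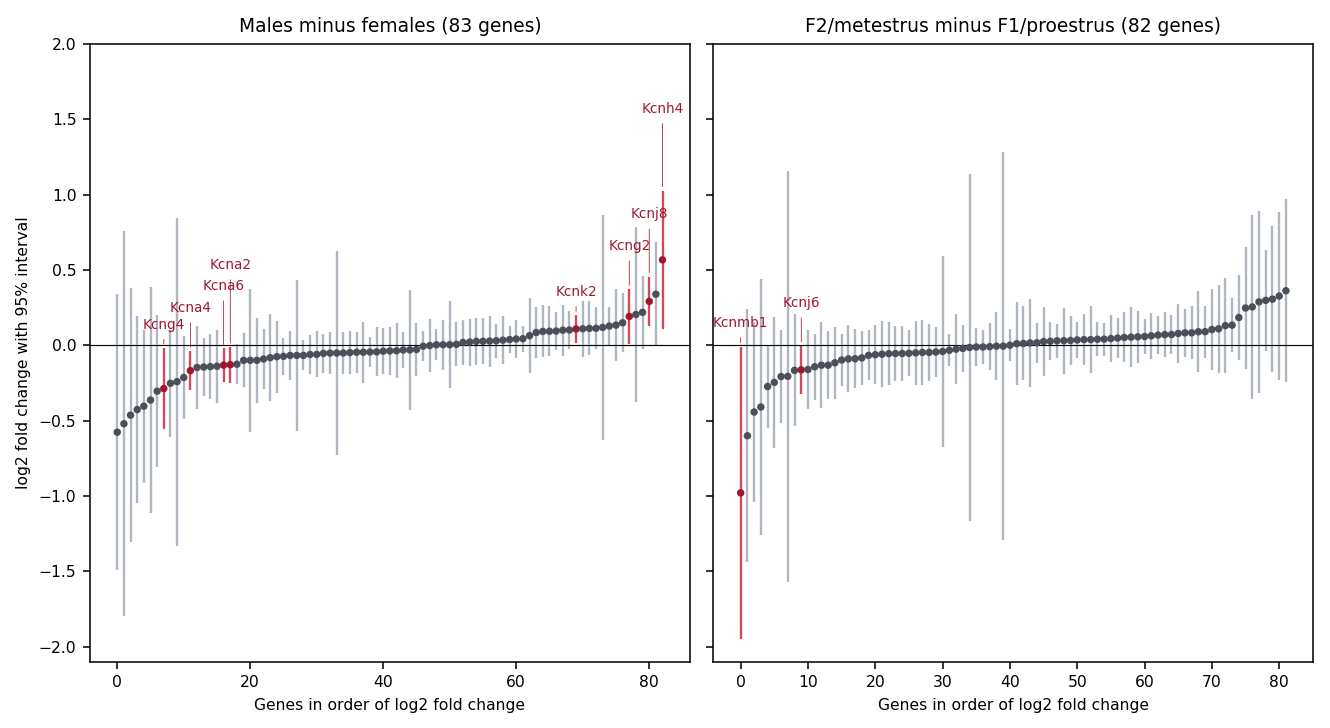
Log2 fold changes of the members with 95% intervals, males minus females on the left (83 genes) and F2/metestrus minus F1/proestrus on the right (82 genes), ordered by size. Red marks an unadjusted p under 0.05, reached by 8 genes on the left and 2 on the right, none of which passed an FDR of 5%.

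The smallest p between the sexes belonged to *Kcnj8*, the pore subunit of the vascular ATP-sensitive channel of pericytes and smooth muscle. Its levels were 10.5, 12.0 and 15.1 CPM (lowest, median and highest) in males and 8.60, 9.98 and 12.7 CPM in females. Most males exceeded most females, and the groups overlapped. The log2 fold change was 0.29 ± 0.079 (SE), with an adjusted p of 0.195. It was 0.24 in the first and 0.33 in the second library series. Beside it, the summed mural cell markers (5 genes) were 196 to 244 CPM in males and 187 to 256 CPM in females. Singly these 5 genes went both ways, with log2 fold changes of -0.23 to 0.41. At an unadjusted p under 0.05, 1 was higher in males and 1 lower, and 0 passed an FDR of 5%. *Abcc9*, the regulatory partner of *Kcnj8*, had a log2 fold change of -0.05 (adjusted p = 0.9415). The part of these genes in the *Kcnj8* value was not tested.

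The other members with small p values followed in both directions. *Kcna4*, a rapidly inactivating Kcna subunit, had 10.4, 11.2 and 12.0 CPM in males and 11.2, 12.9 and 14.5 CPM in females, a log2 fold change of -0.17 ± 0.062 (SE, adjusted p = 0.379). *Kcna6* had 120, 137 and 152 CPM in males and 131, 151 and 163 CPM in females, a log2 fold change of -0.13 ± 0.053 (SE, adjusted p = 0.425). The *Kcna6* value was -0.07 in the first and -0.22 in the second library series. All 3 of the Kcna to Kcnd genes with an unadjusted p under 0.05 (*Kcna2*, *Kcna4* and *Kcna6*) had lower values in males, and 0 of the 15 tested passed an FDR of 5%. *Kcnh4*, a low member of the ether-a-go-go family, had 0.556, 0.865 and 0.969 CPM in males and 0.231, 0.512 and 0.826 CPM in females, a log2 fold change of 0.57 ± 0.22 (SE, adjusted p = 0.4). *Kcnk2*, a mechano- and temperature-sensitive leak channel, had 22.03, 23.0 and 24.9 CPM in males and 18.7, 21.7 and 22.3 CPM in females, a log2 fold change of 0.11 ± 0.044 (SE, adjusted p = 0.422). All of these distributions overlapped between the sexes.

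Markers of other cells moved with sex. The 4 Schwann cell markers, *Prx*, *Ncmap* and *Egr2* among them, summed to 875 to 2140 CPM in males and 586 to 1180 CPM in females, all 4 at an unadjusted p under 0.05 and 1 (*Ncmap*) at an FDR of 5%, or 3 without F1/proestrus 5. Of 10 dorsal horn neuron markers, 7 had higher values in males at an unadjusted p under 0.05 and 1 (*Grp*) at an FDR of 5%, with a median log2 fold change of 0.26. Without F1/proestrus 5 these were 5 and 1, with a median of 0.25. The 7 motor neuron markers had log2 fold changes of -0.38 to -2.07 with all samples and of -0.01 to -0.85 without F1/proestrus 5, which was the highest sample for *Isl1*, *Isl2* and *Prph*. Their medians were -0.62 and -0.42, and none passed an FDR of 5% in either fit. The part of these shifts in the members' values was not tested.

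The 12 females were compared by group, F2/metestrus minus F1/proestrus, to ask whether channel expression followed the behavioral group and cycle stage. No member passed an FDR of 5%: 0 of 82 tested were called by edgeR, as were 0 of all 24042 genes (0.0%), and DESeq2 and limma voom called 0 members. At an unadjusted p under 0.05 there were 2 members, *Kcnj6* and *Kcnmb1*, where 2.48% of all genes were. The median log2 fold change was 0.01 over the members and -0.00039 over all genes. The 95% interval lay within 0.5 of 0 on the log2 scale for 63 members (70.6% of all genes) and within 1 for 75 (89.7% of all genes). No member had the female groups without overlap, as 0.108% of all genes did.

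*Kcnj6*, a G protein-gated inward rectifier opened by opioid receptors, had 5.50, 6.20 and 6.86 CPM in F2/metestrus and 6.43, 7.01 and 7.44 CPM in F1/proestrus. The groups overlapped, with a log2 fold change of -0.16 ± 0.074 (SE, adjusted p = 1.0). It was -0.18 without F1/proestrus 5, -0.12 in the first and -0.21 in the second library series. *Kcnmb1*, a beta subunit of the large-conductance calcium-activated channel, had 0.869, 1.11 and 1.89 CPM in F2/metestrus and 1.06, 1.35 and 7.47 CPM in F1/proestrus. Its log2 fold change of -0.98 ± 0.46 (SE, adjusted p = 1.0) became -0.12 without F1/proestrus 5, the sample with 7.47 CPM. *Kcnip2*, a calcium-binding partner of Kcnd channels, behaved likewise, with -0.27 ± 0.13 (SE, adjusted p = 1.0) over all females and -0.12 without F1/proestrus 5. Its values were 23.3, 24.0 and 24.7 CPM in F2/metestrus and 22.5, 25.5 and 43 CPM, with F1/proestrus 5 the highest in F1/proestrus.

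*Kcnk5*, an alkaline-activated leak channel, gave a larger value when that sample was left out. It had 3.53, 3.94 and 4.83 CPM in F2/metestrus and 2.67, 2.87 and 5.08 CPM in F1/proestrus, with F1/proestrus 5 the highest of all females. The log2 fold change of 0.30 ± 0.16 (SE, adjusted p = 1.0) became 0.47 without it, with an adjusted p of 0.9999. It was 0.47 in the first and 0.13 in the second library series. *Kcnn3*, a small-conductance calcium-activated channel, had 4.80, 5.70 and 6.48 CPM in F2/metestrus and 4.71, 5.23 and 5.71 CPM in F1/proestrus, a log2 fold change of 0.13 ± 0.083 (SE, adjusted p = 1.0).

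The members differed more between the library series than between the groups. With group as a covariate, 30 of 82 members differed at an FDR of 5%, where 27.6% of all 24038 genes did. Of these 30, 22 were lower in the second series (15.2% of all genes) and 8 higher (12.4% of all genes). DESeq2 gave 19 lower and 12 higher, and the fit of genes with at least 10 counts in 6 samples 18 lower and 12 higher. The log2 fold change had the same sign within males, F1/proestrus and F2/metestrus analyzed alone in 29 of the 30. The 30 were chosen by a fit of these same samples, so a shared sign was likely beforehand and is no independent support. Members called at an FDR of 5% in a group alone were 4 in males, 1 in F1/proestrus and 2 in F2/metestrus. A total of 20 of the 30 kept their call whichever library was left out, the 15 with the smallest p among them.

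**Figure D3:**
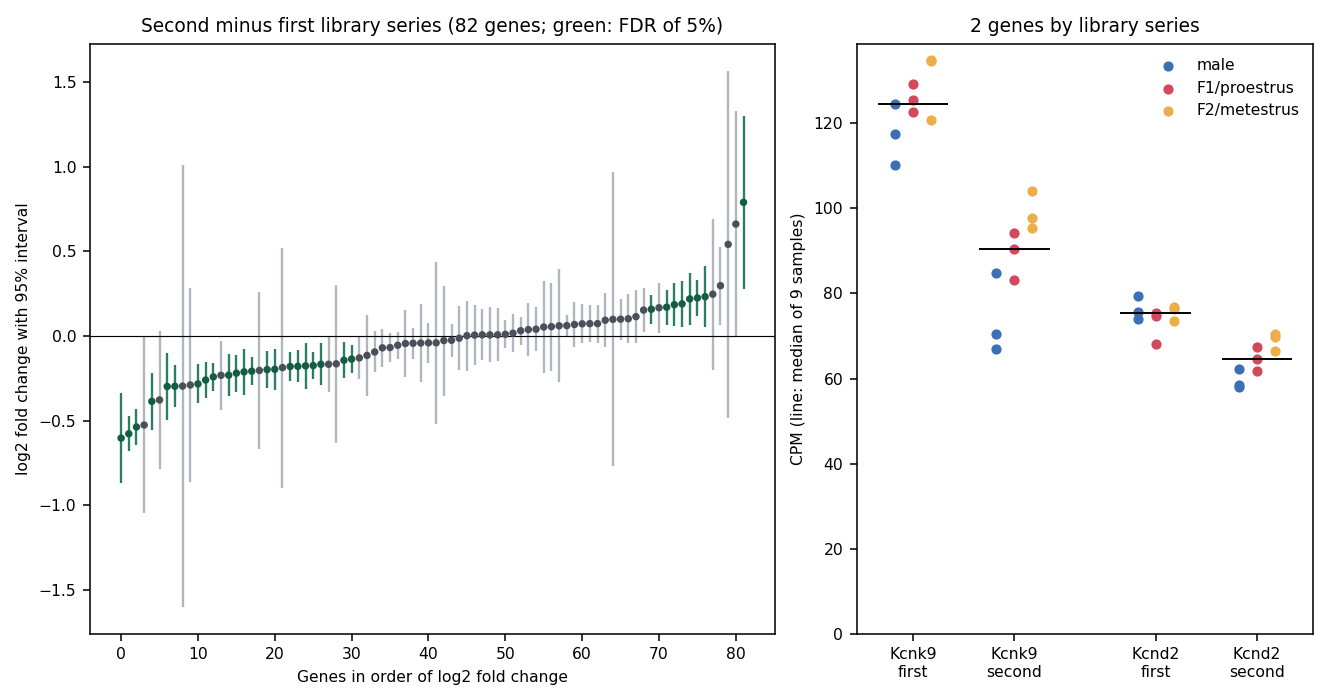
Left: log2 fold changes of 82 members, second minus first library series, with 95% intervals and green for an FDR of 5% (22 lower, 8 higher). Right: CPM of Kcnk9 and Kcnd2 in each sample by series and group, with the median of 9 samples as a line; the series do not overlap for Kcnk9 and overlap for Kcnd2.

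*Kcnk9*, an acid-sensitive leak channel, had 110, 125 and 135 CPM in the first series and 67.0, 90.5 and 104 CPM in the second. No sample of one series reached the range of the other. Its log2 fold change was -0.54 ± 0.052 (SE, adjusted p = 6.01e-07), and -0.49, -0.40 and -0.67 in F1/proestrus, F2/metestrus and males alone. The series did not overlap in 2 of 82 members, where they did not in 4.22% of all genes.

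The counts by family follow, to be read beside the 15.2% of all genes that were lower and the 12.4% that were higher. No test compared the families. The counts include 10 calls that were lost when at least 1 library was left out. Among the lower genes, the call was lost for *Kcnj9* with 16, *Kcnq3* with 15 and *Kcnj16* with 14 of the 18 libraries left out singly. For *Kcna3* and *Kcna6* it was lost with 6 of the 18 each. Among the Kcna to Kcnd genes, 7 of 15 were lower and 1 was higher. *Kcnd2* and *Kcnd3*, the pore subunits of the A-type current, fell by 0.24 and 0.39 on the log2 scale (adjusted p = 0.000145 and 0.00128). *Kcnd2* had 68.1, 75.3 and 79.3 CPM in the first series and 57.9, 64.6 and 70.5 CPM in the second, with little overlap. *Kcna1* and *Kcna2*, which form heteromeric axonal channels, fell by 0.21 and 0.18 (adjusted p = 0.000649 and 0.00291), and *Kcnc2* by 0.18 (adjusted p = 0.00171). Of 5 Kcnq genes 3 were lower, *Kcnq5* with a log2 fold change of -0.30 (adjusted p = 0.000838). Of 8 Kcnh genes 2 were lower, *Kcnh5* with -0.28 (adjusted p = 0.000712) and *Kcnh1* with -0.18 (adjusted p = 0.00527).

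Of 13 Kcnj genes 4 were lower and 0 higher, the unstable calls of *Kcnj9* and *Kcnj16* among the 4. *Kcnj2*, a strong inward rectifier, had 4.74, 7.31 and 9.88 CPM in the first series and 3.53, 4.96 and 6.56 CPM in the second, a log2 fold change of -0.60 ± 0.13 (SE, adjusted p = 0.00138). *Kcnj3*, a G protein-gated channel, fell by 0.23 (adjusted p = 0.00649). Of the calcium- or sodium-activated channels 3 of 8 were lower, *Kcnt1* with a log2 fold change of -0.26 (adjusted p = 0.000759), and 2 were higher. Of 9 modifiers 1 was lower, *Kcns2* with -0.22 (adjusted p = 0.00371), and 1 was higher. The tandem-pore genes were split, 2 of 12 lower and 2 higher. *Kcnk4*, a mechanosensitive leak channel, had 10.5, 12.1 and 13.6 CPM in the first series and 11.9, 14.3 and 15.7 CPM in the second, a log2 fold change of 0.22 ± 0.052 (SE, adjusted p = 0.00285). Its exons overlap those of *Catsperz* on the same strand, so reads there cannot be assigned with certainty.

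Of 12 auxiliary genes 0 were lower and 2 higher, *Kcnip3* and *Kcnip2*. The *Kcnip2* call was lost when any of 7 of the 18 libraries was left out. The median log2 fold change was 0.07 for the auxiliary genes, 0.02 for the modifiers, -0.01 for the calcium- or sodium-activated channels, -0.01 for Kcnk, -0.09 for the Kcna to Kcnd genes, -0.11 for Kcnh, -0.14 for Kcnj and -0.18 for Kcnq, beside -0.01 for all genes tested. The members that were lower had a greater exon length, taken as the union of all annotated exons of a gene. Their median exon length was 7016 bases, beside 3642 bases for the 8 that were higher and 4000 for the 52 not called. The corresponding medians over all genes were 6745, 2148 and 2970 bases. Among the cell type markers, 5 of 10 dorsal horn neuron genes were higher in the second series and 0 lower. Of 4 oligodendrocyte precursor genes 3 were lower and 1 higher, and of 5 endothelial genes 3 were lower and 0 higher. Of 6 microglia genes 3 were higher and 1 lower. No other cell type list had more than 1 gene called in either direction. Without F1/proestrus 5, 2 oligodendrocyte precursor and 2 endothelial genes were lower, and the dorsal horn neuron and microglia counts stayed the same. The part of exon length and of these markers in the difference was not tested.

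The difference between the sexes was also compared between the series: 0 of 83 members passed an FDR of 5% for this interaction, but 10 had an unadjusted p under 0.05, all with a lower male-minus-female value in the second series, where 4.97% of all genes had such a p. Within the first series alone 11 members had an unadjusted p under 0.05 between the sexes, 10 higher in males and 1 lower (8.12% of all genes had such a p). Within the second series alone there were 12, 2 higher and 10 lower (11.8% of all genes). None of these passed an FDR of 5% in either series. The difference between the female groups was compared between the series as well. For this interaction 0 of 82 members passed an FDR of 5%, as did 2 of 24042 genes. An unadjusted p under 0.05 was found in 6 members (3.13% of all genes). Of these 6, 5 had a lower F2/metestrus-minus-F1/proestrus value in the second series. The shares of all genes given here join both directions and were not counted by direction. Whether the directions of the members differ from those of all genes can therefore not be said.

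A set of members was high in a single sample. Of the 83 members, 5 had 1 sample over 2 times the next highest, and the share of all genes that did was not counted. In all 5 (*Kcnmb1*, *Kcnh6*, *Kcnn4*, *Kcnd1* and *Kcng3*) this sample was F1/proestrus 5. These genes and *Kcnk18* were chosen after their values were seen, except that *Kcnmb1* was named by its p between the female groups. That choice rests on the same sample, since its log2 fold change there was -0.98 with F1/proestrus 5 and -0.12 without it. *Kcnd1*, an A-type channel subunit, had 72.5 CPM there (8284 counts) and 20.6 to 33.8 CPM in the other 17 samples. *Kcnmb1* had 7.47 CPM against 0.657 to 1.89 CPM, *Kcnn4*, the intermediate-conductance calcium-activated channel, 3.69 against 0.625 to 1.65 CPM, and *Kcnh6* 10.8 against 2.48 to 4.79 CPM. *Kcng3* had 0.604 CPM against 0.0178 to 0.299 CPM. *Kcnk18*, a leak channel known from sensory ganglion neurons and below the count minimum here, had 101 counts in F1/proestrus 5 and at most 2 in any other sample.

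**Figure D4:**
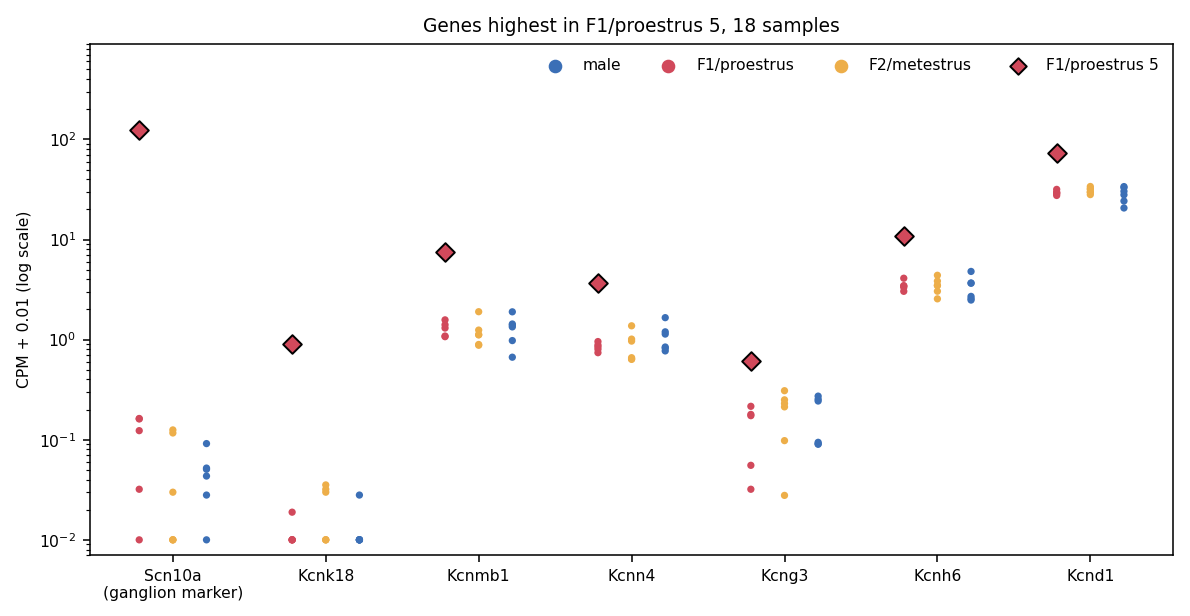
CPM plus 0.01 (log axis) of Scn10a, a sensory ganglion marker, and of 6 members in each of 18 samples, colored by group. F1/proestrus 5 (diamond) is the highest sample for every gene shown, with 125 CPM of Scn10a against at most 0.153 CPM elsewhere.

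In the same sample *Scn10a*, the sodium channel of nociceptors, had 125 CPM against at most 0.153 CPM in the others, and *Mrgprd* 32.9 CPM against at most 0.0445 CPM. The part of these markers in the members' values was not tested. Comparisons between groups changed accordingly when the sample was left out. Between the female groups the log2 fold change went from -0.25 to 0.07 for *Kcnd1*, from -0.60 to 0.06 for *Kcnn4* and from -0.44 to -0.00 (-0.00437) for *Kcnh6*. None of these passed an FDR of 5% with or without it. The higher level of *Kcnn4* in the second series also depended on it in size, with a log2 fold change of 0.79 with it and 0.48 without it (adjusted p = 0.0206 and 0.0201).

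A different set of samples was low in *Kcnj14* and *Kcng4*. *Kcnj14*, an inward rectifier known from cranial motor nuclei, ranged from 3.67 to 23.6 CPM over the 18 samples. Its 4 lowest samples were male 5 (3.67 CPM), F1/proestrus 2 (4.30 CPM), male 6 (7.78 CPM) and F1/proestrus 6 (8.39 CPM). The same 4 samples were the lowest for *Kcng4*, with 79.1, 85.4, 99.45 and 99.05 CPM in this order, where the others had 115 to 171 CPM. They were also the 4 lowest for *Chat*, the enzyme of acetylcholine synthesis, with 4.14, 6.99, 10.5 and 8.43 CPM against 13.4 to 28.4 CPM. F1/proestrus 3 was the highest for all 3 genes.

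**Figure D5:**
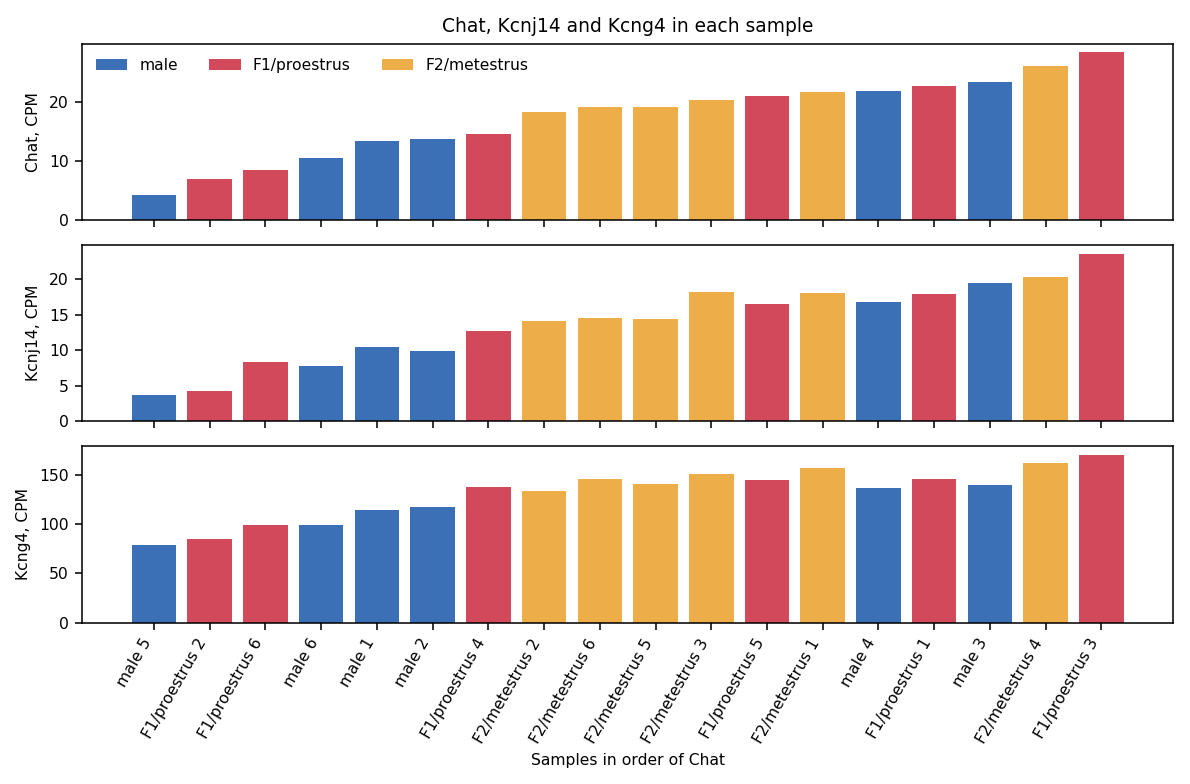
CPM of Chat, Kcnj14 and Kcng4 in each of 18 samples, ordered by Chat and colored by group. The 4 samples lowest in Chat are the 4 lowest in both channel genes, and they come from males and F1/proestrus.

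The motor neuron markers *Slc5a7*, *Slc18a3*, *Mnx1* and *Isl2* shared these 4 lowest samples, while *Isl1* shared 2 of them. The part of these markers in the levels of *Kcnj14* and *Kcng4* was not tested. *Kcnj14*, and the likeness of both *Kcnj14* and *Kcng4* to *Chat*, were chosen after the values were seen. The *Kcng4* value between the sexes was also chosen in this way. Between the sexes *Kcng4* had 79.1, 116 and 140 CPM in males and 85.4, 146 and 171 CPM in females, a log2 fold change of -0.29 ± 0.13 (SE, adjusted p = 0.488). It was -0.21 without male 5 and -0.34 without F1/proestrus 2. For *Kcnj14* the value was -0.43 ± 0.30 (SE, adjusted p = 0.641), -0.25 without male 5 and -0.66 without male 3.

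Genes that act with potassium channels were examined as a separate list of 17 partner subunits and anchors, together with 4 Hcn genes, which encode the pacemaker channels, and 11 genes of the sodium-potassium pump. Between the sexes and between the female groups 0 of these 32 genes passed an FDR of 5%. The smallest p between the sexes within the partner and pump lists were those of *Cntnap2* (log2 fold change -0.14, adjusted p = 0.478), which anchors Kcna channels along the axon, and *Fxyd6* (0.21, adjusted p = 0.444). Between the female groups they were those of *Lrrc26* (0.51) and *Fxyd2* (-3.51), each with an adjusted p of 1.0. *Fxyd2*, a pump modulator, had 64.8 CPM in F1/proestrus 5 and at most 1.94 CPM elsewhere, and its log2 fold change was -0.21 without this sample.

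Between the library series 9 of the 17 partners were lower and 0 higher, where 15.2% and 12.4% of all genes were. *Dlg2*, a scaffold that clusters channels at the membrane, had 87.5, 107 and 112 CPM in the first series and 68.4, 75.8 and 80.6 CPM in the second, without overlap. Its log2 fold change was -0.47 ± 0.055 (SE, adjusted p = 4.82e-06). *Cntn2* and *Adam22*, which with *Cntnap2* belong to the axonal complex of *Kcna1* and *Kcna2*, had -0.35 and -0.39 (adjusted p = 2.62e-05 and 2.08e-05), and *Cntnap2* itself had -0.20 (adjusted p = 0.000734). *Abcc9*, the regulatory partner of *Kcnj8*, had -0.60 ± 0.10 (SE, adjusted p = 0.000184). Of the 4 Hcn genes 1 was lower and 0 higher, and of the 11 pump genes 2 were lower (*Atp1a4* and *Atp1b2*) and 2 higher (*Fxyd1* and *Fxyd7*). The *Atp1b2* call (log2 fold change -0.13, adjusted p = 0.0409) was lost in 24 of 26 alternative settings, DESeq2, voom and RLE factors among them.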

How the data were processed

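RNA-Seq was available for 18 ipsilateral DHSC samples, grouped by their labels into males, F1/proestrus and F2/metestrus. The authors deposited raw read counts on exons of 55573 Ensembl genes. Uniquely mapped reads (Subread, mm10) had been counted with featureCounts, as the methods state (the processing notes list Subread 2.0.3, bcl2fastq 2.20.0.422 and DESeq2 1.3.0). The methods name a TruSeq kit and the labels SMART-Seq with Nextera XT. A strand setting of the counting is not given in the sources used here, so reads of the 25 members whose exons lie over a gene on the other strand, and of 1 on the same strand, may be shared with it. A second table holds the mean counts, log2 fold changes, test statistics and p-values of the authors' own comparison; of it only gene symbols were used.

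Genes were placed with GENCODE vM21 (55394 of 55573, all 92 members). Counts were tested in edgeR 4.0.16 (R 4.3.3) with filterByExpr (minimum count 10, total 15), TMM and the quasi-likelihood test, with Benjamini-Hochberg adjustment over all genes and an FDR of 5%. Males were compared with females in 18 samples, F2/metestrus with F1/proestrus in 12, and library series in 18 with group as a covariate. Alternatives were DESeq2 1.42.0, limma voom 3.58.1 with quality weights, RLE factors, other filters, a replicate block, series as a covariate, parts of the samples and leaving out each sample. The edgeR test was also run on simulated counts with known changes put in, and the outcome is not given here. These counts held no outlying sample such as F1/proestrus 5 and no series effect beside the change compared. The simulation therefore cannot show how the test deals with either. Floors (3 counts) cover counting error only. Where replicates are not separate animals, p-values would measure technical spread.

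Members, lists and tests were chosen with earlier results of these data known. Genes were named if they passed an FDR of 5% (at most 15 per comparison, by p), had 1 of the 5 smallest p in a comparison, or were the top 2 of their family by CPM per kb; a gene of the partner lists was named if it passed or had its list's smallest p. Others were chosen after their values were seen: these are *Kcnd1*, *Kcnh6*, *Kcnn4*, *Kcng3*, *Kcnk18*, *Kcnj13* and *Kcnj14*. So were *Kcna2* and *Kcng4* between the sexes, and the likeness of *Kcnj14* and *Kcng4* to *Chat*. Between the series, this holds for *Kcnip2*, *Kcnip3*, *Kcna3*, *Kcna6*, *Kcnj9*, *Kcnj16* and *Kcnq3*. Some genes that the rule names are not reported here. Sequences came from the GENCODE transcripts.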

Additional observations from a re-analysis of the deposited data

Results flagged for a closer look

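In groups of 6 samples, a value was marked when its gap to the nearest sample exceeded 0.625 of the group's range. This was found in 15 of 156 checks (52 genes in 3 groups). For genes chosen without regard to their values, chance gives about 1 in 20, or 7.8. The genes checked include *Kcnd1*, *Kcnh6*, *Kcnn4* and *Kcnj13*, chosen after their values were seen, so the count cannot be judged by that number. In F1/proestrus 5, which carried the sensory ganglion markers, 4 genes stood out: *Kcnd1* with 72.5 CPM (27.5 to 31.7 in the other 5), *Kcnmb1* with 7.47 CPM (1.06 to 1.57), *Kcnn4* with 3.69 CPM (0.730 to 0.946) and *Kcnh6* with 10.8 CPM (3.03 to 4.09). Their part in the comparison of the female groups is given with and without this sample above.

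Among the other high values, *Kcnd3* had 37.0 CPM in F1/proestrus 2 (24.0 to 28.7 in the other 5) and *Kcnj10* had 105.9 CPM in F1/proestrus 3 (76.2 to 86.0). *Kcnj13* had 4.85 CPM in F1/proestrus 4 (0.782 to 2.30) and 6.94 CPM in F2/metestrus 3 (0.339 to 2.55). *Kcnmb1* had 1.89 CPM in F2/metestrus 5 (0.869 to 1.24). Among males, *Kcnn2* had 52.2 CPM in male 1 (45.1 to 46.1) and *Kcnk5* had 7.77 CPM in male 3 (3.56 to 4.87). Low values were 131 CPM of *Kcna6* in F2/metestrus 5 (152 to 163), 8.60 CPM of *Kcnj8* in F2/metestrus 4 (9.97 to 10.5), 14.2 CPM of *Kcnk10* in male 4 (19.0 to 21.3) and 13.4 CPM of *Kcnq3* in male 4 (17.2 to 19.1).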

How the results depend on the processing

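Between the sexes and between the female groups, 0 members were called at an FDR of 5% under every alternative run, those leaving out each library included. Between the library series the count of 30 was 31 with DESeq2, 29 with voom and with RLE factors, 27 without a filter and 30 with at least 10 counts in 6 samples. It was 23 to 30 when 1 library was left out, and 1 in F1/proestrus, 2 in F2/metestrus and 4 in males alone, fits with fewer samples. Reversed directions were *Kcnd1* between the sexes in the first series alone (log2 fold change 0.0526), *Kcnd1* between the female groups without F1/proestrus 5 (0.0727, with a range of -0.315 to 0.0727 over the 12 libraries left out) and in the first series alone (0.0842), and *Kcnn4* between the female groups without F1/proestrus 5 (0.0585, range -0.773 to 0.0585).

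The replicate numbers in the labels pair no animals or batches that the labels name. Same-numbered samples of different groups had correlations of deviations from -0.105 to 0.228, over 0.1 in 9 of 18 pairs. Pairs of other numbers and groups were over 0.1 in 19 of 90. The mean was 0.085 for same-numbered and -0.017 for other pairs. With deviations taken within each library series the means were -0.0094 and 0.0019. With the replicate number as a block, 0 members were called between the sexes (0 without it) and 0 between the female groups. At 3 counts per 0.0240 to 0.0407 CPM, depth limits statements on the 9 members below the count minimum.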

Other observations

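Outside the comparisons, *Kcnj15*, an inward rectifier below the count minimum, had 88 counts (0.792 CPM) in male 3 and at most 27 counts in any other sample. *Kcna10* reached 22 counts in F1/proestrus 2 and at most 13 elsewhere, and *Kcnj1* had a highest level of 0.00906 CPM, under the 3 counts read as signal. Symbols beginning with Kcn that the naming rule leaves out (7 in the table, 5 of them antisense genes) were not used. Members that lie close to each other in the genome differed in level: *Kcna1*, *Kcna6* and *Kcna5*, on chromosome 6, had 60.5, 24.5 and 3.27 CPM per kb of exon, and *Kcnj9* and *Kcnj10*, on chromosome 1, had 10.1 and 15.9 CPM per kb.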
